A study of Mus musculus with 80 samples.

Results

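The comparison described is that of mouse liver after 22 h without food with the liver of mice fed ad libitum, both taken at circadian time (CT) 32. Its members are the 8 libraries whose titles read fasted CT32 or control CT32, 4 of each and each 4 made up of 2 males and 2 females, out of 80 libraries in the series. All mice were C57BL/6J bought at 8 to 12 weeks of age, kept in groups on standard chow in a light–dark cycle and then moved to constant darkness. Food was removed at CT10 from the fasted mice and left in place for the controls, and livers of both treatments were taken every 4 h from CT8 to CT44. The tissue was the centre of the left lobe, its polyadenylated RNA was sequenced, and each library came from 1 mouse. Unless a fit on the 8 libraries alone is named, the p-values below rest on the spread between mice over all 80 libraries. That spread was taken within treatment, time and sex, so it includes times other than CT32. The rule relies on the titles and on the column names of the count table, because the detailed labels of all 8 libraries read fasted and assign all 4 fasted libraries to males and all 4 control libraries to females.

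Circadian time counts hours by the animal's own day, and CT24 to CT36 span the subjective day, when mice, being nocturnal, rest and eat little. At CT32 a fed mouse is therefore also living partly on its stores, whereas at CT20 or CT44, in the subjective night, it is eating. During a fast the liver first breaks down its glycogen, then makes glucose from amino acids, lactate and glycerol, and burns fatty acids that arrive from adipose tissue. Acetyl-CoA left over from that oxidation leaves the liver as ketone bodies for the brain and muscle. Insulin and the sterol-sensing SREBP transcription factors drive the synthesis of fat and cholesterol in the fed state, while glucagon, glucocorticoids and the fatty acid receptor PPAR-alpha drive the fasting programme. The liver clock keeps its own time but takes cues from feeding.

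The 8 libraries held 33774119 to 47037236 counts. Mitochondrial transcripts took 4.85% to 6.45% of them and the 10 most abundant genes 15.9% to 17.9%. The ribosomal RNA gene Rn18s-rs5 took 1.38% of the counts of control male 1 and 0.0659% to 0.198% of the others. Over the 40 libraries titled male Xist lay between 0.0237 and 2.05 CPM (counts scaled to library size with edgeR's TMM factors), and over the 40 titled female between 915 and 1614, so the titles fit the sex of the RNA. At CT8, with food still in place, 282 genes already passed the test between the groups, 257 of them lower in the group that was to be fasted. Control CT8 female 2 held 25534901 counts, of which Rn18s-rs5 took 31.3%, against 4.88% in fasted CT8 female 2. Where the CT8 difference is subtracted below, both libraries were kept, and the test also takes in the spread of the CT8 livers. The part of these libraries in the CT8 difference was not tested. In whole-tissue RNA, fewer cells of a type and less RNA per cell cannot be told apart.

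Of 21187 genes with enough counts to test, 3751 differed between fasted and control livers at CT32 at an adjusted p under 0.05, which is 17.7% of the genes tested. Of these, 1780 rose with fasting (8.40% of the genes tested) and 1971 fell (9.30%). A change of at least 1.5 times was seen in 878 of the genes that rose and in 1140 of those that fell, and of at least 2 times in 512 and 622. The 4 fasted and the 4 control libraries did not overlap in 3926 genes, 18.5% of those tested, and 2727 of these were also called. The median log2 change over all genes tested was -0.0060, and 3721 of the 3751 genes moved the same way in males and in females. In a principal component analysis of the 8 libraries the sexes separated along the first component (33% of the variance) within each treatment, and the treatments along the second (28.6%) within each sex. Both components carried both factors, as fasted livers lay higher on the first within each sex and females higher on the second within each treatment. Neither percentage is therefore the share of sex or of treatment alone. The log2 changes below are fasted minus control, with the sexes weighted equally and SE from edgeR's quasi-likelihood fit.

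**Figure D1:**
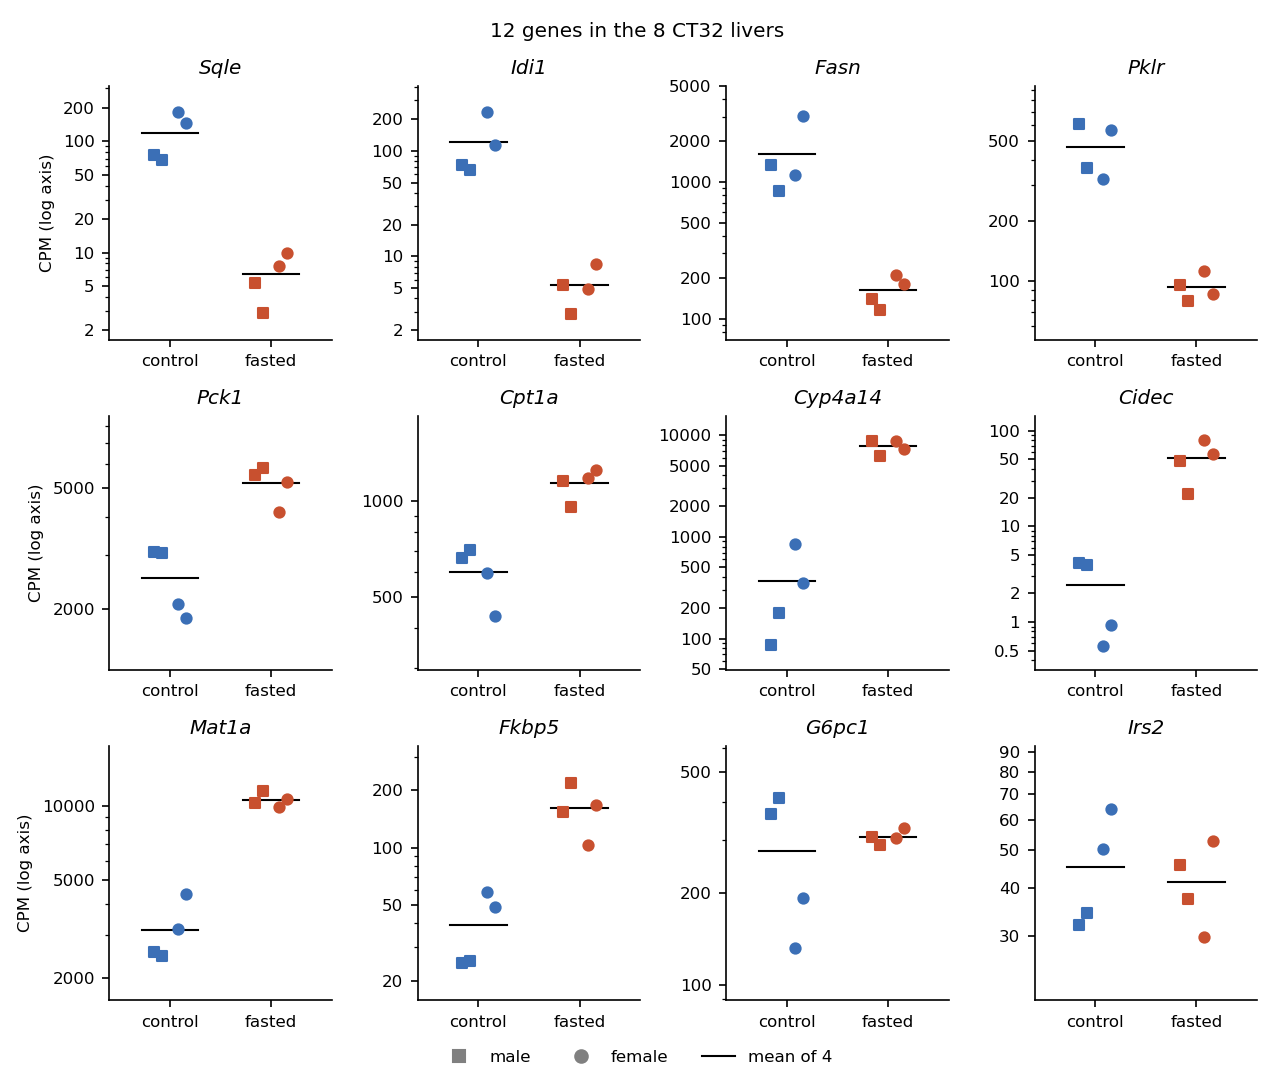
Normalised counts of 12 genes in each of the 8 CT32 libraries, in CPM on a log axis, with males as squares, females as circles and a line at the mean of each group of 4. The 4 fasted livers sit below all 4 controls for Sqle, Idi1, Fasn and Pklr and above them for Pck1, Cpt1a, Cyp4a14, Cidec, Mat1a and Fkbp5, while the groups overlap for G6pc1 and Irs2.

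Every one of the 20 genes of cholesterol synthesis and uptake fell at CT32, with a median log2 change of -2.54, and for 19 of them the fasted and control libraries did not overlap. Sqle, squalene epoxidase, a rate-limiting step of sterol synthesis, was read at 75.8 and 68.5 CPM in the control males, 182 and 145 in the control females, 5.32 and 2.85 in the fasted males and 7.56 and 9.86 in the fasted females. Its fasted level was 18.3-fold lower (log2 change -4.19, SE 0.39, adjusted p = 4.35e-11). Idi1, which isomerises the isoprenoid building block, stood at 73.1 and 66.0 CPM in the control males, 235 and 114 in the control females, 5.32 and 2.85 in the fasted males and 4.92 and 8.50 in the fasted females (log2 change -4.40, SE 0.33, adjusted p = 1.09e-13). The fasted livers were all far below the controls for both genes, and among the controls Idi1 was highest in female 1.

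The falls ran along the whole pathway, from Hmgcs1 (-3.24 on the log2 scale), which condenses acetoacetyl-CoA with acetyl-CoA, through the isoprenoid steps Mvd (-3.90) and Fdps (-4.46), to the sterol enzymes Cyp51 (-3.65) and Nsdhl (-3.71). Insig1, which holds SREBP in the endoplasmic reticulum, fell by 2.99 on the log2 scale, and Srebf2, which encodes SREBP-2, by 0.78, the latter with 1 or more libraries overlapping. Hsd17b7, a late sterol reductase, fell by 0.76. With any 1 of the 8 libraries left out, all 20 genes still passed.

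Because the list moved together, the 250 bases before its transcription starts were read from RefSeq (mouse assembly GRCm38.p6), which held 13 of the 20 genes. The letters CCAAT, the core of the box bound by the factor NF-Y that accompanies SREBP at many sterol promoters, stood on either strand in 13 of these 13, against 39.9% of the 12522 genes tested that had a promoter. The sterol regulatory element in its classical letters TCACCCCAC stood in 1, Hmgcs1 (7.69% of the 13, against 0.671%), and the E-box CACGTG in 4 (30.8%, against 9.18%). CCAAT also stood in 66.7% of the promoters found of the fatty acid synthesis list and of the PPAR-alpha list given below, in 68.8% of those of the clock list and in 25% of those of mitochondrial oxidation, and the E-box in 31.2% of the clock promoters. Matched letters describe these windows and show no binding. The 5 promoters below, of genes whose log2 changes lay between -4.40 and -3.24, are shown 5′ to 3′ on the strand of the gene, with CCAAT or its reverse complement ATTGG in capitals and, in Hmgcs1, also the sterol regulatory element. Hmgcs1 holds 3 CCAAT boxes and Cyp51 a single one close to the start. The windows are Hmgcs1 at chr13:119690101-119690350 (plus strand), Mvd at chr8:122443423-122443672 (minus), Idi1 at chr13:8885356-8885605 (plus), Cyp51 at chr5:4104698-4104947 (minus) and Nsdhl at chrX:72918271-72918520 (plus).
Hmgcs1: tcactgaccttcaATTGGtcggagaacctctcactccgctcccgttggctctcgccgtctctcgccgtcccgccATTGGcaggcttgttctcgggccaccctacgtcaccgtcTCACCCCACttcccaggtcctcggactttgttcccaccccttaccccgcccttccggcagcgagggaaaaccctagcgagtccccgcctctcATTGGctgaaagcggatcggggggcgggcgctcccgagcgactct
Mvd: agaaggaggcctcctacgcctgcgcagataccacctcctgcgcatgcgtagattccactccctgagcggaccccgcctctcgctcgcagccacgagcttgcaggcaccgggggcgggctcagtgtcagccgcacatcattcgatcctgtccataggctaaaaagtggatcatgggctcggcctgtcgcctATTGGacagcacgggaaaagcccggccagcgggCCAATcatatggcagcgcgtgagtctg
Idi1: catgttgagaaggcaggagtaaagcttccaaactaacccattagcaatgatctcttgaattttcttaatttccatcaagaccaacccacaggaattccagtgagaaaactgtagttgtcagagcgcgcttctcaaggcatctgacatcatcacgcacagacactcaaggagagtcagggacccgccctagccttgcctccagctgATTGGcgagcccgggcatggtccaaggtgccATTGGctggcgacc
Cyp51: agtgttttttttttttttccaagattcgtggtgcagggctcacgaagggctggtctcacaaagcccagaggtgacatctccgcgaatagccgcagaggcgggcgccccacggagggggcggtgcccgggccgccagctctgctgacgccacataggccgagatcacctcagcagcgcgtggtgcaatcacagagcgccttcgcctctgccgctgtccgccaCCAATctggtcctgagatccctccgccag
Nsdhl: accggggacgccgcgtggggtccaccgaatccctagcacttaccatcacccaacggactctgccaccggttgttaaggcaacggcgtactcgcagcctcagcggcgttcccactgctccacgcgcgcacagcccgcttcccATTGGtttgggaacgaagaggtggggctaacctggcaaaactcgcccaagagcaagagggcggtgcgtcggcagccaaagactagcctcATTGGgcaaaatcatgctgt

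Of the 14 genes of fatty acid synthesis 12 fell, with a median log2 change of -2.22, and none rose. Fasn, fatty acid synthase, was measured at 1328 and 861 CPM in the control males, 1119 and 3043 in the control females, 140.4 and 116 in the fasted males and 210.4 and 178 in the fasted females (log2 change -3.26, SE 0.39, adjusted p = 2.78e-08). Srebf1, which encodes the lipogenic factor SREBP-1, stood at 465 and 311 CPM in the control males, 378 and 591 in the control females, 52.9 and 42.0 in the fasted males and 76.9 and 69.6 in the fasted females (log2 change -2.88, SE 0.29, adjusted p = 3.66e-10). The groups did not overlap for either gene, and in Fasn control female 2 was far above the other controls. Scd1, the stearoyl-CoA desaturase, was at 12214 and 9479.9 CPM in the control males, 4817 and 13928 in the control females, 3207 and 3504 in the fasted males and 1668 and 175 in the fasted females (log2 change -2.52, SE 0.52, adjusted p = 0.000391). Thrsp, a lipogenic activator of unsettled mechanism, was read at 944 and 393 CPM in the control males, 309 and 803 in the control females, 23.8 and 90.1 in the fasted males and 80.7 and 93.1 in the fasted females (log2 change -3.11, SE 0.57, adjusted p = 6.73e-05). Both were lower in every fasted liver than in any control, but with a wide spread within the groups. Pnpla3, a lipid droplet protein whose human variant is linked to fatty liver, was low throughout, at 0.744 and 0.289 CPM in the control males, 1.5 and 5.70 in the control females, 0.0858 and 0.0673 in the fasted males and 0.262 and 0.211 in the fasted females (log2 change -3.34, SE 0.80, adjusted p = 0.00210), a call lost without control male 1 and with the difference at CT8 subtracted. The citrate-cleaving enzyme Acly (-2.19), the carboxylases Acaca (-1.72) and Acacb (-1.14) and the elongase Elovl6 (-2.36) also fell. Elovl5 and Fads2, which work on polyunsaturated chains, were not called, at 0.57 (adjusted p = 0.0600) and -0.40 (adjusted p = 0.340).

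In glycolysis and glucose sensing 4 of 11 genes fell and 1 rose. Pklr, liver pyruvate kinase, the last step of glycolysis, was measured at 605 and 366 CPM in the control males, 324 and 567 in the control females, 95.4 and 79.1 in the fasted males and 112 and 86.1 in the fasted females (log2 change -2.32, SE 0.45, adjusted p = 0.000151). All fasted livers were below all controls. Mlxipl, which encodes the glucose-sensing factor ChREBP, fell by 1.2 and Pfkl by 0.41. Txnip, a ChREBP target that restrains glucose uptake, was not called, with 69.9 and 141 CPM in the control males, 95.3 and 99.0 in the control females, 125 and 172 in the fasted males and 137 and 187 in the fasted females (log2 change 0.62, SE 0.38, adjusted p = 0.281).

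Of 13 genes of gluconeogenesis 9 rose and none fell, with a median log2 change of 0.82. Pck1, which makes phosphoenolpyruvate from oxaloacetate, was at 3071 and 3061 CPM in the control males, 2079 and 1868 in the control females, 5523 and 5809 in the fasted males and 4150.0 and 5217 in the fasted females (log2 change 1.07, SE 0.25, adjusted p = 0.00170). Ppargc1a, the coactivator PGC-1alpha, was read at 9.48 and 8.96 CPM in the control males, 16.1 and 15.9 in the control females, 21.7 and 30.7 in the fasted males and 41.7 and 71.5 in the fasted females (log2 change 1.66, SE 0.35, adjusted p = 0.000417). The fasted livers were above every control for both. G6pc1, the glucose-6-phosphatase that releases glucose, was not called, with 365 and 410.1 CPM in the control males, 132 and 193 in the control females, 306 and 288 in the fasted males and 305 and 327 in the fasted females (log2 change 0.29, SE 0.29, adjusted p = 0.549). Its controls spanned the fasted values, with the control males above all fasted livers and the control females at the low end of the whole range. The transaminases Gpt2 (0.97), Tat (1.19) and Got1 (1.44), the pyruvate carboxylase Pcx (0.82) and the glycerol kinase gene Gk (0.82) rose, whereas Fbp1 (0.10) and the glycerol channel Aqp9 (-0.0033) were not called. At CT8 itself none of the 13 genes was called. When the CT8 difference was subtracted, 3 of the 13 were still called, and Pck1 and Ppargc1a were not. Over all genes the subtraction left 1977 of 21187 called. The part of the added CT8 spread in these losses was not tested.

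Of 9 genes of glycogen metabolism 2 fell, the phosphorylase Pygl (-1.08) and the branching enzyme Gbe1 (-0.92), and the synthase Gys2 was not called (0.09, adjusted p = 0.778). Of 7 genes that control pyruvate dehydrogenase only the kinase gene Pdk1 was called, lower by 0.84, a call lost when any of 6 of the 8 libraries was left out, all except control male 2 and control female 1. Pdk4, the kinase usually taken as a marker of fasting, stood at 2.88 and 3.84 CPM in the control males, 5.30 and 4.05 in the control females, 4.46 and 5.72 in the fasted males and 8.82 and 6.16 in the fasted females and was not called (log2 change 0.64, SE 0.53, adjusted p = 0.452), although a fit on the 8 CT32 libraries alone called it (adjusted p = 0.0254). Both lists together gave a share of calls near the 17.7% of all genes tested.

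Of 14 genes of mitochondrial fatty acid oxidation 11 rose and none fell, with a median log2 change of 0.73. Cpt1a, which carries long-chain fatty acids into the mitochondrion, was measured at 664 and 701 CPM in the control males, 594 and 436 in the control females, 1163 and 962 in the fasted males and 1187 and 1257 in the fasted females (log2 change 0.94, SE 0.16, adjusted p = 1.76e-05). All fasted livers were above all controls. The acyl-CoA dehydrogenases Acadm (1.17), Acadl (0.84) and Acadvl (0.61) and the trifunctional protein genes Hadha (0.67) and Hadhb (0.85) were among those that rose, and Acads, Hadh and Acaa2 were not called. Of 6 genes of ketone body synthesis and export 3 rose, among them the thiolase gene Acat1 (log2 change 0.54, SE 0.18, adjusted p = 0.0354), with 345 and 379 CPM in the control males, 405 and 333 in the control females, 564 and 414 in the fasted males and 515 and 634 in the fasted females. The groups lay apart for Acat1, though its call was lost without control male 1, control male 2, control female 2, fasted male 1 or fasted female 2, while the ketone exporters Slc16a1 (0.25) and Slc16a6 (0.0052) were not called. With the CT8 difference subtracted none of the 6 passed, and 8 of the 14 oxidation genes did, although no gene of either list was called at CT8 itself.

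Targets of PPAR-alpha outside the mitochondrial pathway formed a further list, of which 11 of 16 rose and none fell, with a median log2 change of 1.39. Cyp4a14, a fatty acid omega-hydroxylase, was at 86.9 and 179 CPM in the control males, 856 and 349 in the control females, 8678 and 6261 in the fasted males and 8647 and 7317 in the fasted females (log2 change 4.77, SE 0.57, adjusted p = 2.29e-08). Its fasted livers lay close together and 27.3-fold above the controls, which differed widely among themselves. The neighbouring Cyp4a10 (3.55) and Cyp4a31 (3.28) rose as well, but these paralogs are so alike in sequence that reads may be split between them. The acyl-CoA thioesterase gene Acot1 was read at 16.6 and 21.4 CPM in the control males, 27.5 and 10.8 in the control females, 124 and 45.6 in the fasted males and 209 and 111 in the fasted females (log2 change 2.61, SE 0.44, adjusted p = 2.42e-05), and it shares nearly all its coding sequence with Acot2 (1.70). Cidec, which fuses lipid droplets, rose from 2.42 ± 1.93 to 51.8 ± 23.7 CPM (SD, n = 4), and Ehhadh (2.56) and Plin5 (2.08) rose too. Plin2, the common droplet coat protein, stood at 379 and 464 CPM in the control males, 335 and 263 in the control females, 587 and 324 in the fasted males and 717 and 569 in the fasted females and missed the threshold (log2 change 0.61, SE 0.23, adjusted p = 0.0552), which it passed under other scalings and filters (adjusted p = 0.0493 with DESeq2 size factors) and without fasted male 2 (0.0258). Ppara itself (-0.14, adjusted p = 0.727) was not called. Without fasted male 1, 1 gene of the list was called lower.

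**Figure D2:**
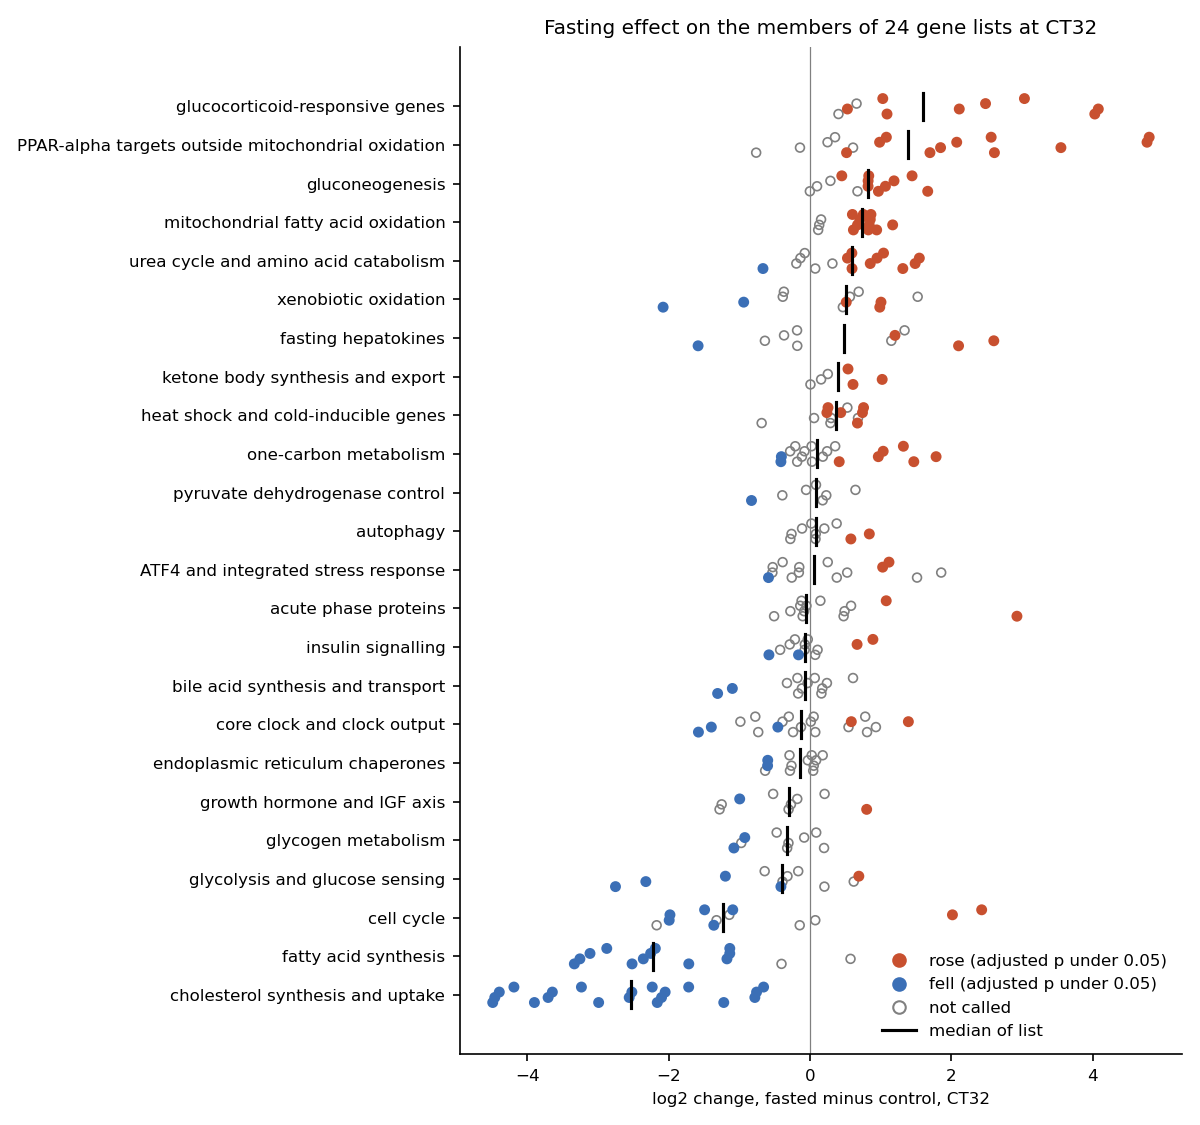
Log2 change, fasted minus control, of every tested member of 24 gene lists at CT32, with 1 row per list, filled points for genes at an adjusted p under 0.05, open points for the others and a bar at the list's median. All 20 cholesterol genes lie left of 0, 12 of 14 fatty acid synthesis genes are filled and left of 0, and 11 of 14 genes of mitochondrial oxidation are filled and right of 0.

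Of 10 hepatokines and other fasting-responsive liver genes 3 rose and 1 fell, calls that did not outlast the omission of single libraries. Fgf21, the fasting hormone of the liver, stood at 0.198 and 0.809 CPM in the control males, 1.21 and 0.460 in the control females, 3.63 and 1.23 in the fasted males and 3.32 and 3.0 in the fasted females (log2 change 2.10, SE 0.72, adjusted p = 0.0368). Angptl4, an inhibitor of lipoprotein lipase, was measured at 79.5 and 107 CPM in the control males, 61.9 and 51.4 in the control females, 143 and 130.3 in the fasted males and 211 and 198 in the fasted females (log2 change 1.2, SE 0.44, adjusted p = 0.0477). Igfbp1, a binding protein for insulin-like growth factors that insulin represses, was at 18.3 and 20.9 CPM in the control males, 18.2 and 18.4 in the control females, 30.8 and 103 in the fasted males and 70.2 and 323 in the fasted females (log2 change 2.6, SE 0.84, adjusted p = 0.0246). Fasted and control libraries did not overlap for the 3 genes, and the Igfbp1 controls were tight while its fasted livers spread widely. Angptl8, a lipase regulator of the fed state, fell by 1.59. Leaving out any 1 of the 8 libraries left 0 or 1 of the 3 rises, and the fall of Angptl8 was lost without control female 1, fasted male 2 or fasted female 2. With the CT8 difference subtracted none of the 3 rises passed, although no gene of the list was called at CT8 itself. Igf1, the growth factor made by the liver under growth hormone, was not called, with 532 and 716 CPM in the control males, 644 and 676 in the control females, 725 and 657 in the fasted males and 518 and 409 in the fasted females (log2 change -0.18, SE 0.17, adjusted p = 0.536).

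Of 9 genes of the growth hormone axis the receptor Ghr fell by 1.00 and the binding protein Igfbp2 rose by 0.80. This share of calls was near the 17.7% of all genes tested, and the rise was lost without control female 2 or fasted female 2. Over all genes tested 8.40% rose and 9.30% fell. In insulin signalling 2 of 12 genes rose, Foxo1 (0.67) and Tsc22d3 (0.89), and 2 fell, Sesn3 (-0.58) and Akt2 (-0.16). Each of the 8 omissions left 1 of these 2 falls, and 1 of the rises was lost without fasted male 2. Irs2, the insulin receptor substrate that insulin represses, was read at 32.1 and 34.4 CPM in the control males, 50.5 and 63.9 in the control females, 45.8 and 37.4 in the fasted males and 29.8 and 52.7 in the fasted females and was not called (log2 change -0.07, SE 0.27, adjusted p = 0.893).

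One-carbon metabolism supplies methyl groups as S-adenosylmethionine, and 6 of its 18 genes rose and 2 fell at CT32. Mat1a, which makes S-adenosylmethionine in hepatocytes, stood at 2563 and 2472 CPM in the control males, 3176 and 4393 in the control females, 10322 and 11558 in the fasted males and 9910.4 and 10724 in the fasted females (log2 change 1.78, SE 0.17, adjusted p = 1.68e-10). Ahcy, which removes S-adenosylhomocysteine, was measured at 1104 and 1013 CPM in the control males, 927 and 1067 in the control females, 2025 and 2617 in the fasted males and 1764 and 2051 in the fasted females (log2 change 1.03, SE 0.11, adjusted p = 5.61e-10). The groups did not overlap for either gene. Bhmt, which remethylates homocysteine with betaine, was at 3195 and 2483 CPM in the control males, 2844 and 3955 in the control females, 7014 and 9404 in the fasted males and 6920.3 and 7747 in the fasted females (log2 change 1.32, SE 0.32, adjusted p = 0.00265). Nnmt, which spends methyl groups on nicotinamide, was read at 69.6 and 44.8 CPM in the control males, 38.0 and 62.7 in the control females, 122 and 218 in the fasted males and 100.9 and 159 in the fasted females (log2 change 1.47, SE 0.41, adjusted p = 0.00898). Both were higher in each fasted liver than in any control, but neither passed with the CT8 difference subtracted. Cth (0.97), of transsulfuration, and Bhmt2 (0.41) also rose, the methyltransferase Pemt (-0.41) and the methionine synthase Mtr (-0.41) fell, and Gnmt (0.18, adjusted p = 0.541) was not called. The call of Nnmt was lost without control male 2, control female 1 or fasted male 2. Without control female 1 the rises numbered 3, and without control female 2 the falls numbered 1.

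In the urea cycle and amino acid catabolism 9 of 15 genes rose and 1 fell, with a median log2 change of 0.59. Argininosuccinate lyase, Asl (1.55), arginase, Arg1 (1.04), the lysine-degrading Aass (1.31) and ornithine aminotransferase, Oat (0.95), were among those that rose. Otc, which makes citrulline, fell by 0.67. Ass1 (0.32, adjusted p = 0.434) was not called.

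Of 19 genes of the clock and its output 2 rose and 3 fell, against 8.40% and 9.30% of all genes tested. Bmal1, the activator at the centre of the clock, was near its daily low, with 1.07 and 1.47 CPM in the control males, 1.46 and 1.72 in the control females, 2.86 and 5.29 in the fasted males and 3.53 and 3.21 in the fasted females (log2 change 1.39, SE 0.35, adjusted p = 0.00359). Its partner Clock rose by 0.58, and the repressors Bhlhe40 (-1.58), Bhlhe41 (-1.40) and Nr1d2 (-0.46) fell. The fasted and control livers lay apart for Bmal1, though the call was lost without fasted male 2. Dbp, an output gene driven directly by the clock, stood at 202 and 201 CPM in the control males, 224 and 223 in the control females, 118 and 107 in the fasted males and 112 and 91.3 in the fasted females (log2 change -0.99, SE 0.36, adjusted p = 0.0506). Nr1d1, the repressor REV-ERB-alpha, was measured at 93.5 and 135 CPM in the control males, 214 and 206 in the control females, 122 and 123 in the fasted males and 84.6 and 49.5 in the fasted females (log2 change -0.78, SE 0.30, adjusted p = 0.0672). Dbp was lower in every fasted liver than in any control yet missed the threshold, and Nr1d1 overlapped between the groups. Per1 was at 63.9 and 47.8 CPM in the control males, 52.8 and 38.5 in the control females, 70.3 and 84.5 in the fasted males and 105 and 89.2 in the fasted females (log2 change 0.78, SE 0.34, adjusted p = 0.102). Per2 was read at 60.1 and 45.8 CPM in the control males, 39.1 and 44 in the control females, 37.6 and 34.6 in the fasted males and 48.4 and 53.6 in the fasted females (log2 change -0.13, SE 0.22, adjusted p = 0.751). Neither period gene was called, and a fit on the 8 CT32 libraries alone called Per1 (adjusted p = 0.00968) and Dbp (adjusted p = 0.000190). The rises of the list numbered 4 without fasted male 1 and 1 without fasted male 2, and the falls 1 without fasted female 2.

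**Figure D3:**
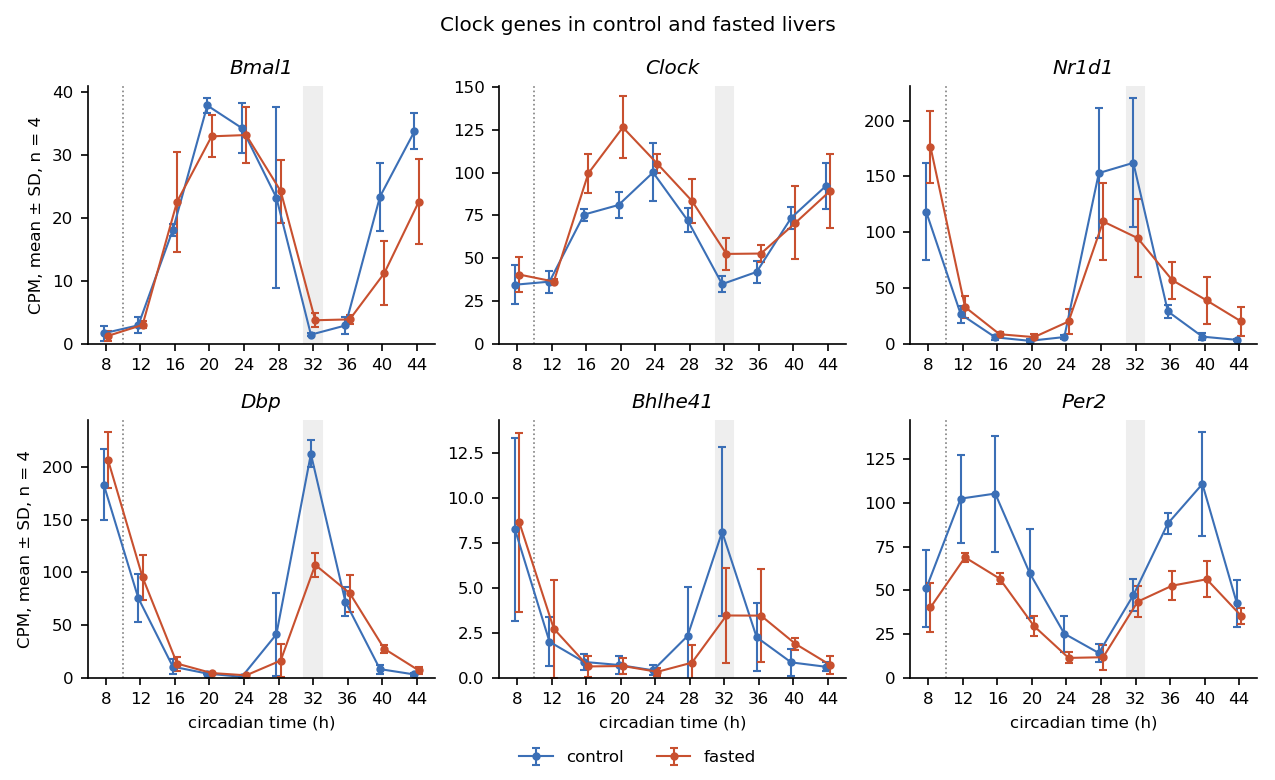
Mean ± SD (n = 4) in CPM of Bmal1, Clock, Nr1d1, Dbp, Bhlhe41 and Per2 in control and fasted livers from CT8 to CT44, with a dotted line at the removal of food and a grey band at CT32. Bmal1 of fasted livers is above the controls at CT32 (3.72 ± 1.08 against 1.43 ± 0.271) and below them at CT40 (11.2 ± 5.14 against 23.4 ± 5.41), and Nr1d1 of fasted livers is below at CT32 and above at CT40.

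The difference in Bmal1 turned sign over the next hours. Its log2 change was 1.39 at CT32, 0.43 at CT36 (adjusted p = 0.346) and -1.11 at CT40 (adjusted p = 0.00202). Dbp went the opposite way, from -0.99 at CT32 (adjusted p = 0.0506) to 1.78 at CT40 (adjusted p = 0.000189), and Nr1d1 from -0.78 (adjusted p = 0.0672) to 2.59 (adjusted p = 1.67e-08). In controls Dbp fell from 212 ± 12.8 CPM at CT32 to 8.32 ± 4.22 at CT40, and in fasted livers from 107 ± 11.6 to 27.6 ± 3.95. The fasted range was narrower at both ends.

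Glucocorticoid-responsive genes rose in 8 of 10 cases and none fell, with a median log2 change of 1.6. Fkbp5, a chaperone of the glucocorticoid receptor that the receptor itself induces, stood at 24.8 and 25.4 CPM in the control males, 58.6 and 48.6 in the control females, 153 and 217 in the fasted males and 103 and 168 in the fasted females (log2 change 2.11, SE 0.32, adjusted p = 4.4e-06). Cdkn1a, the cell cycle inhibitor p21, was measured at 1.02 and 0.954 CPM in the control males, 0.592 and 1.06 in the control females, 7.26 and 13.8 in the fasted males and 20.3 and 20.9 in the fasted females (log2 change 4.03, SE 0.60, adjusted p = 2.39e-06). The groups lay apart for both, as they did for 5 of the 10 genes. The metallothioneins Mt1 (3.03) and Mt2 (4.08), which bind zinc and are closely related in sequence, rose with overlapping libraries, and the feedback inhibitor Errfi1 (1.09) and the triglyceride lipase Pnpla2 (1.03) rose too. Sgk1 (0.66, adjusted p = 0.252) and Dusp1 (0.40, adjusted p = 0.489) were not called.

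The integrated stress response and the chaperones of the endoplasmic reticulum gave shares of calls near that of all genes tested (17.7%). Of 14 genes of the integrated stress response Atf5 (1.12) and Sesn2 (1.03) rose and Stbd1 (-0.59) fell, the fall being lost without control female 1 or fasted male 2. Asns, asparagine synthetase, a standard target of ATF4, was at 1.46 and 1.36 CPM in the control males, 0.114 and 0.230 in the control females, 1.46 and 11.5 in the fasted males and 0.157 and 0.445 in the fasted females and was not called (log2 change 1.51, SE 0.93, adjusted p = 0.287), fasted male 2 being far above all others. Of 12 chaperones of the endoplasmic reticulum Pdia6 (-0.60) and the transcription factor gene Xbp1 (-0.60) fell, 1 of the 2 being lost without control male 2, control female 2, fasted male 1 or fasted female 2. Hspa5, the chaperone BiP, was read at 569.8 and 496 CPM in the control males, 333 and 520.4 in the control females, 512 and 596 in the fasted males and 428 and 421 in the fasted females (log2 change 0.02, SE 0.22, adjusted p = 0.969).

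Of 12 heat shock and cold-inducible genes 6 rose, but by little: Rbm3 (0.76) and Cirbp (0.67), which the cold induces, Hspa8 (0.74), Hsp90ab1 (0.43), Hspe1 (0.25) and Hspd1 (0.24). The 6 became 2 without control female 2 and 3 without control male 2, control female 1, fasted male 2 or fasted female 1. Of 10 autophagy genes Map1lc3b (0.58) and Bnip3 (0.84) rose, a share near the 17.7% called over all genes tested. The initiating kinase Ulk1 was not called (-0.28, adjusted p = 0.184). Of 13 acute phase genes Hp (1.08) and Lcn2 (2.93) rose, again a share near 17.7%. With each omission except those of fasted male 1 and fasted female 1, 1 of these rises was lost. Saa1, the inducible amyloid protein that is nearly the same as Saa2, stood at 37.5 and 26.2 CPM in the control males, 51.0 and 21.5 in the control females, 39.0 and 162 in the fasted males and 15.0 and 36.3 in the fasted females (log2 change 0.58, SE 0.80, adjusted p = 0.685). Hamp, the iron hormone hepcidin, was measured at 799 and 949.6 CPM in the control males, 909.8 and 1436 in the control females, 864 and 749 in the fasted males and 1156 and 1042 in the fasted females (log2 change -0.11, SE 0.25, adjusted p = 0.833). Neither was called.

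Of 12 bile acid genes 2 fell, a share near the 17.7% called over all genes, the export pump Abcb11 (-1.31) and the hydroxylase Cyp7b1 (-1.10), and without control male 1 or fasted female 1 a further member rose. Cyp7a1, the rate-limiting enzyme of bile acid synthesis, was at 169 and 120.0 CPM in the control males, 330.0 and 253 in the control females, 125 and 232 in the fasted males and 139.7 and 458 in the fasted females (log2 change 0.17, SE 0.59, adjusted p = 0.889). Of 11 genes of xenobiotic oxidation the cytochromes Cyp1a2 (-2.08) and Cyp2c29 (-0.94) fell, and Cyp3a13 (1.00), the electron donor Por (0.99) and the receptor Nr1i2 (0.51) rose.

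Among 12 cell cycle genes 5 fell, namely Ccnd1 (-1.36), Top2a (-1.98), Mcm5 (-1.49), Mcm6 (-1.09) and Gadd45a (-1.99), and the stress-induced Gadd45b (2.43) and Gadd45g (2.01) rose. At CT8, before food was removed, 5 genes of this list were also called lower in the group that was to be fasted. The median log2 change of the list was -1.40 at CT8 and -1.23 at CT32. The falls at CT32 numbered 2 without control male 1, control female 1 or fasted female 2, and 1 of the rises was lost with each omission except those of control male 1 and fasted male 1.

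Markers of other liver cells moved in part. Of 5 markers of stellate cells and fibroblasts 4 fell, Lrat (-1.05), Reln (-0.43), Pdgfrb (-0.42) and Col1a1 (-1.2), and Dcn was not called (0.13). Their summed level was 211 to 318 CPM in controls and 175 to 281 in fasted livers. The 7 Kupffer cell markers summed to 272 to 383 CPM and 207 to 396, and 1 of them, Clec4f (-0.43), fell. Of 5 endothelial markers Lyve1 (1.33) rose and Clec4g (-0.41) fell, with sums of 246 to 305 CPM and 221 to 272. The 5 hepatocyte markers summed to 77716 to 89692 CPM in controls and 83452 to 96577 in fasted livers, 2 of them rose (0.80 and 0.34), 2 fell (-0.54 and -0.47) and Alb was not called (0.08). Of 4 cholangiocyte markers Krt19 fell (-0.99), with sums of 5.53 to 8.41 CPM and 4.35 to 10.8, and of 3 erythroid markers Alas2 fell (-0.99), with sums of 48.9 to 249 and 55.8 to 201. Lymphocyte markers summed to 2.18 to 3.91 CPM in controls and 2.96 to 4.13 in fasted livers, and neutrophil markers to 0.347 to 1.27 and 0.315 to 1.82. The 4 pancreas markers summed to at most 0.966 CPM, Prss2 and Pnlip being at 0 in all 8 libraries, and adipocyte markers reached 2.57 CPM at most. Whether these other cells had a part in the changes above was not tested.

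By size the genes that rose most were E030018B13Rik (6.31), Gm48199 (5.41), Cidec (4.80), Cyp4a14 (4.77), Cdkn1a (4.03), Apoa4 (4.00), Plin4 (3.75), Cyp4a10 (3.55), ENSMUSG00000123342 (3.39) and Cyp4a31 (3.28). Of these Gm48199 did not pass with the CT8 difference subtracted. They are the 10 largest among called genes whose groups did not overlap and whose mean log2 CPM reached 1. Apoa4, an apolipoprotein of lipid-laden particles, was read at 132 and 125 CPM in the control males, 283 and 292 in the control females, 2629 and 2275 in the fasted males and 4266 and 3477 in the fasted females (log2 change 4.00, SE 0.34, adjusted p = 4.37e-12). Its fasted livers were all far above the controls. E030018B13Rik had few or no counts in the controls, at 3.32 and 0.983 CPM in the control males, 0 and 0.0690 in the control females, 37.7 and 77.3 in the fasted males and 8.63 and 9.25 in the fasted females, so the size of its log2 change rests in part on control values at or near 0. Among the 10 largest falls were Gm3571 (-4.47), Fdps, Idi1, Gm33459 (-4.32), Sqle, Mvd, the fatty acid carrier Fabp5 (-3.85), Nsdhl and Cyp51. Of these 9 falls 6 belong to the cholesterol list.

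The sexes gave 1147 calls in males alone and 2352 in females alone, of which 624 were shared with the same sign and 1 with the opposite sign. The test of the difference between the sexes called 6 genes at an adjusted p under 0.05, which is 0.0283% of the genes tested, and 1590 had an unadjusted p under 0.05. Prlr, the prolactin receptor, which is higher in female liver, stood at 43.8 and 70.1 CPM in the control males, 444 and 357 in the control females, 104 and 76.6 in the fasted males and 153 and 150.4 in the fasted females. Its log2 change was 0.66 in males and -1.40 in females (difference -2.06, adjusted p = 0.00825), so that the fasted sexes lay closer together than the fed ones. Zfp36l1, which destabilises messenger RNA, had 0.70 in males and -1.10 in females (adjusted p = 0.00825). Cabyr, better known from sperm, was measured at 10.8 and 6.59 CPM in the control males, 0.296 and 0.184 in the control females, 0.858 and 0.426 in the fasted males and 0.549 and 0.866 in the fasted females, with -3.78 in males and 1.55 in females (adjusted p = 0.00655). Gm10053, Snx21 and Stard13 were the others, with differences, female minus male, of 1.08, -1.22 and -1.80. The count was 0 without control male 1 or control female 1, and 1 to 3 without control female 2, fasted male 2, fasted female 1 or fasted female 2.

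Against the mean of its neighbours CT28 and CT36, the fasting effect at CT32 differed in 0 genes by edgeR's quasi-likelihood test at an adjusted p under 0.05, the smallest adjusted p being 0.117. Of the genes tested 1286 had an unadjusted p under 0.05, and limma gave 0 calls. Against CT28 alone 0 genes were called, and against CT36 alone 88. The 3 times share no libraries. Those with the smallest p were Arhgef19 (0.75, SE 0.16), the glycogen-targeting phosphatase subunit Ppp1r3b (1.52, SE 0.35), the transferrin receptor Tfrc (1.27, SE 0.30), Leo1 (0.65, SE 0.16) and Ints2 (0.89, SE 0.22), with a higher log2 change at CT32 than at its neighbours, and Klhl24 (-0.73, SE 0.14), Gm34934 (-1.01, SE 0.21), Spata13 (-0.66, SE 0.14), Tmem131l (-0.81, SE 0.17) and Clmn (-0.53, SE 0.11), with a lower one. Klhl24, for example, had log2 changes of -0.14 at CT28, -0.53 at CT32 and 0.55 at CT36.

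CT28 also lies in the rest phase, and CT36 at its end. CT32 was therefore further set against the mean of CT20 and CT44, a comparison chosen after the data had been seen. Both lie 12 h from CT32 in the active phase, after 10 and 34 h without food, and their mean fast of 22 h is that of CT32. The fasting effect at CT32 was higher than this mean in 1021 genes, 4.82% of those tested, and lower in 1149, or 5.42%, with a median difference over all genes of 0.027. Without fasted female 1 the count of 2170 in both directions became 1384, and against CT44 alone it was 1391. The number of genes called by fasting was 3751 at CT32, against 7757 at CT20 and 8355 at CT44.

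**Figure D4:**
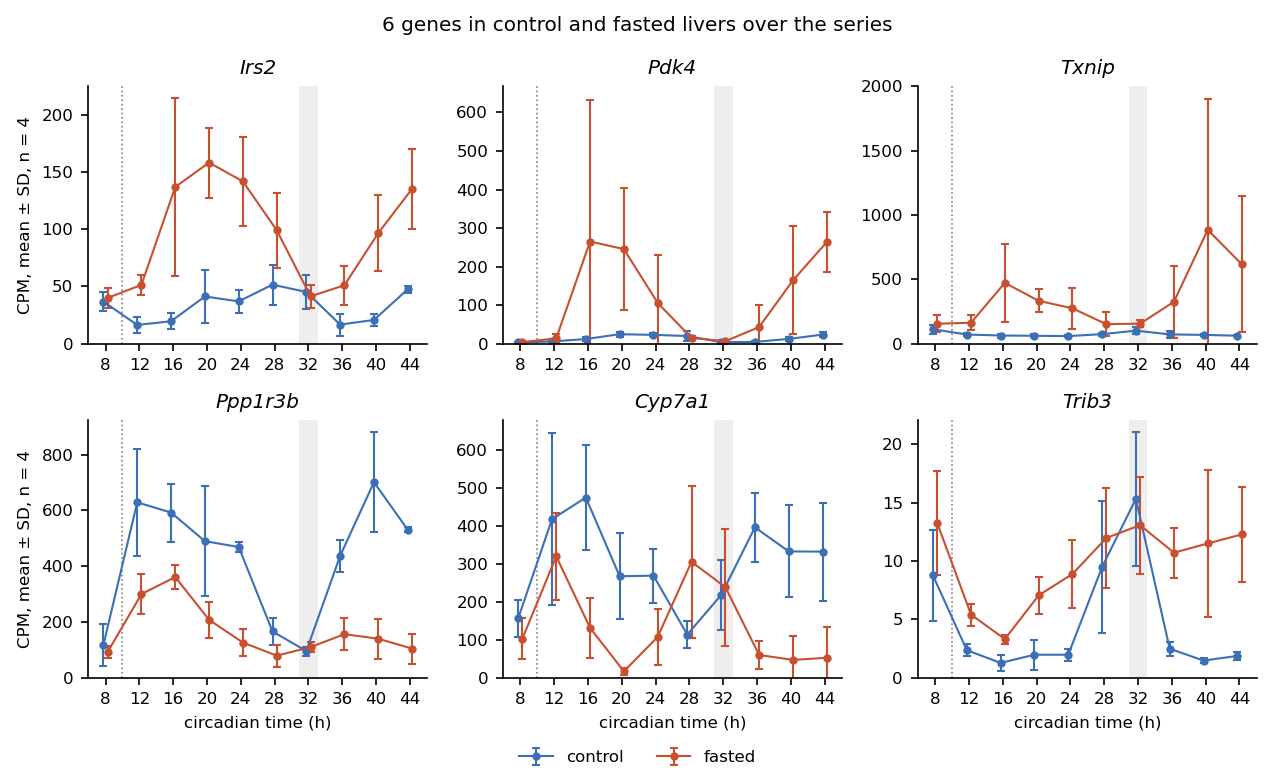
Mean ± SD (n = 4) in CPM of Irs2, Pdk4, Txnip, Ppp1r3b, Cyp7a1 and Trib3 in control and fasted livers from CT8 to CT44, with a dotted line at the removal of food and a grey band at CT32. At CT32 the fasted and control means were 41.4 ± 9.97 and 45.2 ± 14.9 for Irs2, 155 ± 29.3 and 101.2 ± 29.4 for Txnip and 6.29 ± 1.83 and 4.02 ± 0.997 for Pdk4, and at CT20 and CT44 the means lie further apart in each panel.

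Of 12 genes of insulin signalling 1 had a higher and 3 a lower log2 change at CT32 than in the active phase, Irs2 and Trib3 being among the 3. The counts were 0 and 2 of 7 for pyruvate dehydrogenase control, 1 and 1 of 11 for glycolysis and glucose sensing, and 2 and 2 of 9 for glycogen metabolism. Irs2 had a log2 change of 2.03 at CT20, -0.07 at CT32 and 1.5 at CT44 (difference -1.84, SE 0.33, adjusted p = 0.00013). In fasted livers Irs2 went from 158 ± 30.6 CPM at CT20 to 41.4 ± 9.97 at CT32 and 135 ± 34.7 at CT44, while the controls were at 41.3 ± 22.9, 45.2 ± 14.9 and 47.6 ± 2.86. At CT32 the fasted mean thus lay within 1 SD of the control mean, and at CT44, with food still absent, it was called higher again. Pdk4 had 3.23, 0.64 and 3.50 (difference -2.72, SE 0.64, adjusted p = 0.00303), with fasted means of 245 ± 157, 6.29 ± 1.83 and 264 ± 77.1 CPM. Txnip had 2.43, 0.62 and 3.19 (difference -2.19, SE 0.47, adjusted p = 0.00114). Both genes were called at CT20 and CT44 and not at CT32, where some alternatives called them, among them DESeq2 on the 8 CT32 libraries (adjusted p = 0.00382 for Pdk4 and 0.0137 for Txnip).

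Cyp7a1 went the other way, with log2 changes of -3.95 at CT20, 0.17 at CT32 and -3.22 at CT44 (difference 3.76, SE 0.76, adjusted p = 0.000619), its fasted mean being 17.3 ± 8.47 CPM at CT20 and 239 ± 154 at CT32. Ppp1r3b, which brings the phosphatase to glycogen, had -1.18, 0.20 and -2.34 (difference 1.96, SE 0.35, adjusted p = 0.000144). For Ppp1r3b the controls moved more, from 490.1 ± 197 CPM at CT20 to 96.2 ± 16.2 at CT32, while the fasted livers went from 208 ± 64.9 to 110.2 ± 17.3. Trib3, an inhibitor of the kinase Akt, had 1.85, -0.21 and 2.66 (difference -2.47, SE 0.42, adjusted p = 6.55e-05), its controls being 1.98 ± 1.26 CPM at CT20 and 15.3 ± 5.70 at CT32.

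By list, 5 of 10 hepatokine and fasting-responsive genes had a lower log2 change at CT32 (Fgf21, Angptl4, Igfbp1, Lepr and Lpin1) and 1, Angptl8, a higher one. Igfbp1 had 5.05, 2.6 and 6.17 at CT20, CT32 and CT44 (difference -3.01, SE 1.00, adjusted p = 0.0435, lost with 7 of the 8 omissions), and Lpin1, a phosphatidate phosphatase and coactivator, 4.25, 1.15 and 4.13 (difference -3.04, SE 0.65, adjusted p = 0.00122). Autophagy genes were lower at CT32 in 7 of 10 cases (Ulk1, Map1lc3b, Gabarapl1, Sqstm1, Bnip3, Wipi1 and Atg2a) and PPAR-alpha targets in 7 of 16 (among them Ppara, Plin2, Acot2, Pex11a, Creb3l3 and Cidec). The hepatokine count of 5 was 1 without fasted female 1, 2 without control male 2, control female 1 or fasted male 2, and 3 without fasted female 2, whereas the PPAR-alpha count was 7 with each omission. The autophagy count of 7 became 5 or 6 with each omission. Against CT20 alone and CT44 alone the PPAR-alpha count was 10 and 2, the hepatokine count 3 and 2, the autophagy count 5 and 6 and the count of clock genes with a higher change 1 and 4. In the clock list 3 of 19 were higher (Bmal1, Npas2 and Cry1) and 5 lower (Per1, Nr1d1, Nr1d2, Dbp and Ciart), the 3 being 1 without fasted male 2 and 2 without control male 2, control female 1 or fasted female 2. In gluconeogenesis Pck1 alone of 13 differed (difference -1.09, SE 0.30, adjusted p = 0.0144), and not without fasted female 1.

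The lists of fat and sterol synthesis were compared in the same way. None of 14 fatty acid synthesis genes differed between CT32 and the mean of CT20 and CT44, and of 20 cholesterol genes 1, Fdft1, was higher and 2, Cyp51 and Hsd17b7, lower. Over all genes tested 4.82% were higher and 5.42% lower, so the cholesterol list did not give fewer calls than genes at large. Fatty acid synthesis gained 1 call without control female 1 or control female 2. The cholesterol counts were 0 and 3 without control female 2, and 1 and 1 without control male 2, control female 1, fasted male 2 or fasted female 1. Sqle had log2 changes of -4.09, -4.19 and -4.52 at CT20, CT32 and CT44 (difference 0.12, SE 0.43, adjusted p = 0.929), and Fasn -2.74, -3.26 and -2.61 (difference -0.58, SE 0.44, adjusted p = 0.468). A missed threshold does not show that these changes were equal. In mitochondrial oxidation Cpt1a alone of 14 was lower (3 genes without control female 2 and 2 without fasted male 1), and in ketone synthesis none of 6 differed.

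**Figure D5:**
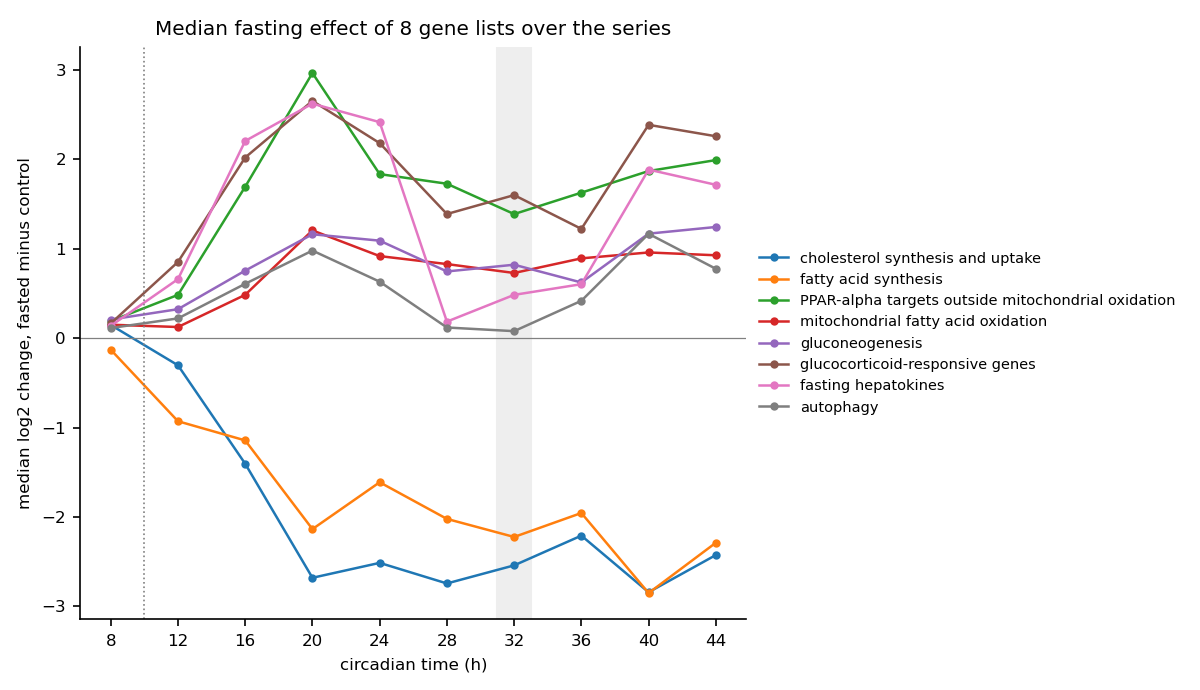
Median log2 change, fasted minus control, of 8 gene lists at the 10 times from CT8 to CT44, with 1 line per list. The cholesterol list stays at -2.74 at CT28, -2.54 at CT32 and -2.43 at CT44, while the hepatokine list goes from 2.62 at CT20 to 0.48 at CT32 and 1.72 at CT44.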

How the data were processed

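The data are polyadenylated, strand-specific RNA-seq libraries of mouse liver, 80 in all, and the comparison concerns 8 of them. The authors deposited a table of raw, unnormalised counts for each gene in each mouse. Per the submitters' processing notes, Trimmomatic, HISAT2 and DESeq2 were used with the build GRCm39. Their versions, the counting program and its strand setting are not given in the sources used here, so overlapping and antisense genes are uncertain. The article is a review without methods, and the tests were therefore not taken from it. The authors' normalised signal and their exon counts were not used.

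Libraries were grouped by title, and in R 4.3.3 the counts of 78275 listed genes were filtered with edgeR 4.0.16 (filterByExpr, leaving 21187), scaled by TMM and fitted by quasi-likelihood over all 80 libraries, with 40 means of treatment, time and sex and trended dispersion. The contrast was fasted minus control at CT32 with equal weight on the sexes. P-values were adjusted by Benjamini–Hochberg over all genes tested and called under 0.05. Named genes are the members of the lists, 41 key genes, 36 of them given by library, the 10 largest rises and falls among called genes whose groups did not overlap and whose mean log2 CPM reached 1, and the 5 genes of smallest p in each direction against the neighbouring times and for the sex difference. Stard13, the sixth gene called for the sex difference, was named, and the libraries of Idi1, Acat1 and Apoa4 were given, after their values were seen. Some genes are counted in their lists but not reported here by name. The lists and tests were chosen with earlier results of these data known. Alternatives were other scalings, filters, thresholds, libraries and tools (limma 3.58.1, DESeq2 1.42.0). Depth was 33774119 to 47037236 counts at CT32. No pair of CT32 libraries of the same treatment was a duplicate by the chi-square of counts over genes with at least 20 counts. Pairs across treatments were not compared. Promoters were taken from RefSeq's GRCm38.p6, and no coordinate was carried between builds.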

Additional observations from a re-analysis of the deposited data

Results flagged for a closer look

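Of 148 groups of 4 libraries examined (the named genes and the library measures, in each treatment at CT32), 5 held a library whose gap to the nearest other exceeded Dixon's 95% critical share of the group's range, which chance passes in about 1 of 20 groups. Igfbp1 of control male 2 was 20.9 CPM against 18.2 to 18.4 in the other controls (gap 0.914 of the range). Asns of fasted male 2 was 11.5 CPM against 0.157 to 1.46 (0.886), and Saa1 of the same liver 162 CPM against 15.0 to 39.0 (0.837). The share of Rn18s-rs5 was 1.38% in control male 1 against 0.0712% to 0.111% in the other controls (0.970), and 0.198% in fasted male 1 against 0.0659% to 0.0867% in the other fasted livers (0.843). Without control male 1 the CT32 comparison called 2704 genes.

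The fasting effect differed between the sexes, by the test of the difference itself, in 6 genes, calls that depended on single libraries as given above. The log2 changes of males and females had opposite signs for Cabyr, Zfp36l1, Prlr, Snx21 and Stard13. Gm10053 had -0.027 in males and 1.06 in females. The female minus male difference in log2 change was 5.34 for Cabyr, 1.08 for Gm10053, -1.80 for Zfp36l1, -2.06 for Prlr, -1.22 for Snx21 and -1.80 for Stard13. What lies behind these differences was not tested.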

How the results depend on the processing

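Among the 53 named genes followed through the alternatives none changed direction against its call. The genes named for the sex difference were not among the 53. Of these Gm10053, called higher at CT32 (log2 change 0.52), had -0.027 in males alone. The count of 3751 genes called at CT32 (1780 rose, 1971 fell) became 2140 (1004 and 1136) at an adjusted p under 0.01, 504 (210 and 294) when a change of at least 1.5 times was tested, 1977 (877 and 1100) with the difference at CT8 subtracted, 1147 (589 and 558) in males alone and 2352 (1057 and 1295) in females alone. Leaving out each library in turn gave 2502 to 2975 calls, 1229 to 1452 rises and 1273 to 1523 falls, the lowest without fasted male 2. Other scalings, filters and tools gave 3666 to 4332. The replicate numbers did not pair the samples (correlation of deviations 0.00827 in males and 0.0853 in females), and the fit with the replicate block on the 8 libraries alone called 3072 genes (1325 and 1747) against 3877 without the block. The 6 genes of the sex difference became 485 with no filter on low counts and 30 on the 8 libraries alone, and 0 to 7 with single libraries left out. The 0 genes against CT28 and CT36 became 319 with no filter, 13 on the 24 libraries of those times, 88 against CT36 alone, 2170 against CT20 and CT44, and 0 to 1 with single libraries left out. The 2170 genes against CT20 and CT44 became 1085 at an adjusted p under 0.01, 1391 against CT44 alone and 1384 to 1757 with single libraries left out. Of the 53 named genes followed 39 were called, and 32 of these with each of the 8 omissions. The cause of these shifts was not tested. Fgf21 and Pnpla3 were read at under 6 CPM in each CT32 library, and the part of depth in their lost calls was not tested.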
